A study of Mus musculus with 6 samples.

Results

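The genes described here are 45 imprinted genes of the mouse, found by their symbols among the 47728 gene rows of each of 4 deposited expression tables. The list rests on knowledge of imprinting and its rule uses no measured value, but the list was chosen with earlier results of these data known. The tables compare oocytes and 2-cell (2C) embryos with and without maternal KDM1A, a histone demethylase that removes methyl groups from lysine 4 of histone H3. The mutant groups were ovulated oocytes (Kdm1aZp3 oocytes) from Kdm1a fl/fl females carrying Zp3-Cre, which recombines in growing oocytes, and 2C embryos of embryonic day 1.5 obtained by mating such females to wild type CB6 males. These embryos lack the maternal supply of KDM1A and carry an intact paternal allele (M-Z+ 2C embryos). Each mutant group had 3 libraries, made from litters of oocytes or embryos pooled at collection. The controls, wild type oocytes and wild type (M+Z+) 2C embryos, are libraries of an earlier study. The paper writes these controls as Kdm1a fl/fl, and the mutant mothers as Kdm1a fl/Δ with Zp3-Cre. Wherever mutant and control means are set side by side, the genotype and the study that made the libraries cannot be told apart. Ages of the animals are not given here. The labels of the mutant oocytes and of the M-Z+ 2C embryos also name different library kits.

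Most mammalian genes are expressed from both parental copies, but an imprinted gene is expressed from the copy of one parent only, in at least some tissues. The choice is carried by DNA methylation that is laid down in the oocyte or in sperm at imprinting control regions, and it is kept through the wave of demethylation after fertilization. Imprinted genes lie in clusters, in which a paternally expressed noncoding RNA or retrogene often sits beside, or inside, a maternally expressed partner. By textbook knowledge, 18 of the 45 are maternally expressed, 23 are paternally expressed, and the parent of the other 4 (Blcap, Gnas, Inpp5f and H13) depends on the transcript. These classes are background, since the tables carry no information on alleles. An oocyte holds maternal RNA only, so a value in oocytes is no measure of imprinted expression. In 2C embryos, stored maternal RNA and new transcripts of the embryo are counted together.

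To show the start sites of some members that the results turn on, windows from 250 bases before to 50 bases after 4 transcription starts are given from RefSeq (GRCm38.p6), 5′ to 3′ on the strand of the gene. Capitals mark TGCCGC, the hexamer bound by ZFP57, a zinc finger protein that keeps methylation at imprinting control regions, searched on both strands so that its reverse complement GCGGCA is capitalised as well. Usp29 and Kcnq1ot1 are shown as members high in control and low in M-Z+ 2C embryos, and Mcts2 and Zdbf2 as the members at least 4-fold higher and lower in mutant oocytes among those with a mean of at least 50.
Usp29 promoter, chr7:6730333-6730632, plus strand: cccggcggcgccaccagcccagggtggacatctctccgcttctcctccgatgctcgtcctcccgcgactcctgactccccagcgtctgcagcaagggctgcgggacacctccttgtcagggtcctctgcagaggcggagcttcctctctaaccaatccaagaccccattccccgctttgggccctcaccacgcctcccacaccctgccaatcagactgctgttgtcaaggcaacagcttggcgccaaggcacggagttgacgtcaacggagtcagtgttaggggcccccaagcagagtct
Kcnq1ot1 promoter, chr7:143296498-143296797, minus strand: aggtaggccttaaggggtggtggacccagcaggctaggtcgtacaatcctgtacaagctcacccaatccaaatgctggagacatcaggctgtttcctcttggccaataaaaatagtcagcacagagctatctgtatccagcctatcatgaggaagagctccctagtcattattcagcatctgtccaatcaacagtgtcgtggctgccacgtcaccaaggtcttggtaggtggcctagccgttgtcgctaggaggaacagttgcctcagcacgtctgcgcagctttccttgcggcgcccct
Mcts2 promoter, chr2:152686898-152687197, plus strand: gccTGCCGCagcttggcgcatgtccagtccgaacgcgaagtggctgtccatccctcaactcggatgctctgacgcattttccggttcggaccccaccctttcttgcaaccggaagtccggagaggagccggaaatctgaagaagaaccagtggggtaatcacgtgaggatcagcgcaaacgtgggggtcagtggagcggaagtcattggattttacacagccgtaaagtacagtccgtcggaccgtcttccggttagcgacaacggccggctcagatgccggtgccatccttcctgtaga
Zdbf2 promoter, the upstream of its RefSeq starts, chr1:63200108-63200407, plus strand: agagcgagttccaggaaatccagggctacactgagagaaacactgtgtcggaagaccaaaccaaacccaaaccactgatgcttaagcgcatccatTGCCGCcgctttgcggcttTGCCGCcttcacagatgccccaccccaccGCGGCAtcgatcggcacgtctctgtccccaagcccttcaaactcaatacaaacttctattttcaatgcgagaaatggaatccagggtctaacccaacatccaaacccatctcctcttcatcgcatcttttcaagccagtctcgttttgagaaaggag

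The Mcts2 window held 1 hexamer and 25 CpG dinucleotides, and the upstream Zdbf2 window held 3 hexamers and 15 CpGs. The other Zdbf2 window, at chr1:63273019-63273318, held 0 hexamers and 38 CpGs. The Usp29 and Kcnq1ot1 windows held 0 hexamers, with 17 and 9 CpGs. The Usp29 window shared 263 bases with the window of its neighbour Peg3, which is transcribed the other way, so that these genes start within 164 bases of each other. Over all members, 37 had at least 1 window and 14 of their 52 windows (26.9%) held the hexamer, against 11.6% of the 32851 windows of the RefSeq table. The members' windows were richer in CpG, with a median of 16.5 against 7 over all windows. Among the 10320 windows with at least as many CpGs as the members' median, 26.2% held the hexamer, a share near that of the members.

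All values below are the authors' group means of weighted, median normalised read counts (normalised read counts). A read that matched several genes was weighted down at each, and no length correction was made, so a value is compared only with the value of the same gene in the other group of the same table. Differences are log2 ratios of the authors' means after adding 10 to each, which understates the difference of low genes. A gene counted as measured where the higher mean was at least 50, and as at least 4-fold higher or lower where the log2 difference reached 2 or -2. No value per library is given here, so no spread between replicates and no test stands behind any difference, and neither the overlap of libraries between groups nor their depth is known. The same minimum is stricter for the oocyte table, because the control oocyte means were a median of 2.30 times as large in the table with control 2C embryos and 1.52 times as large in the table with M-Z+ 2C embryos.

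As a check of the labels, the authors' mean of Kdm1a itself was 6.37 in Kdm1aZp3 and 921 in control oocytes, and 14.5 in M-Z+ and 1254 in control 2C embryos. All 10 oocyte markers were measured in every table. Of 10 cumulus and granulosa cell markers, Amh and Foxl2 were listed at 0 in every group, and Cyp19a1, which encodes aromatase, was the only one measured in the oocyte table, at 4237 in mutant and 957 in control oocytes of summed list means of 4293 and 1006. In M-Z+ and control 2C embryos that list summed to 1521 and 43.6, of which Cyp19a1 made up 1488 and 5.55. The sperm markers Tnp1 and Tnp2 were listed at 0 in every group, and the list summed to 0 in mutant and 20.8 in control oocytes, mostly Prm2 (14.1) and Odf1 (6.66). The 5 oviduct markers summed to 747 in M-Z+ and 2470.4 in control 2C embryos of which Epcam, a gene of many epithelia that was also at 235 in mutant and 181 in control oocytes, made up 740.4 and 2276, and Ovgp1, an oviductal glycoprotein, 1.01 and 154. Blood markers summed to 4.51 and 20.3 there. The part of these cell types in the results was not tested.

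Of the 45 imprinted genes, 30 were measured in at least 1 comparison and 18 in all 4. The other 15 never reached the minimum: Airn, Ascl2, Dcn, Dlk1, H19, Magel2, Mirg, Mkrn3, Nap1l5, Ndn, Nnat, Peg12, Peg13, Sgce and Slc22a18. These include Magel2, Mkrn3, Ndn and Peg12, the paternally expressed genes of the Prader-Willi cluster on chromosome 7, whose means did not exceed 6.78 in any group. They also include Airn, the noncoding RNA that silences Igf2r on the paternal chromosome, at no more than 6.28. The highest means among the 15 were 46.8 for Dcn, a matrix proteoglycan, in mutant oocytes, and 46.0 for the noncoding RNA H19 in control 2C embryos.

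Loss of KDM1A in the oocyte was compared first. Of 19 imprinted genes measured in oocytes, 1 was at least 4-fold higher and 1 at least 4-fold lower in Kdm1aZp3 than in control oocytes (5.26% each), against 4.24% higher and 2.57% lower of all 9094 measured gene rows. The paternally expressed retrogene Mcts2, which lies inside an intron of H13 on chromosome 2, had an authors' mean of 107 in Kdm1aZp3 and 16.2 in control oocytes, a log2 difference of 2.16. At the other end stood the paternally expressed Zdbf2, on chromosome 1, whose authors' mean was 4.63 in Kdm1aZp3 and 78.2 in control oocytes (log2 difference -2.59). Both are members with low means, and with 50 in place of 10 added to the means neither reached 4-fold.

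**Figure D1:**
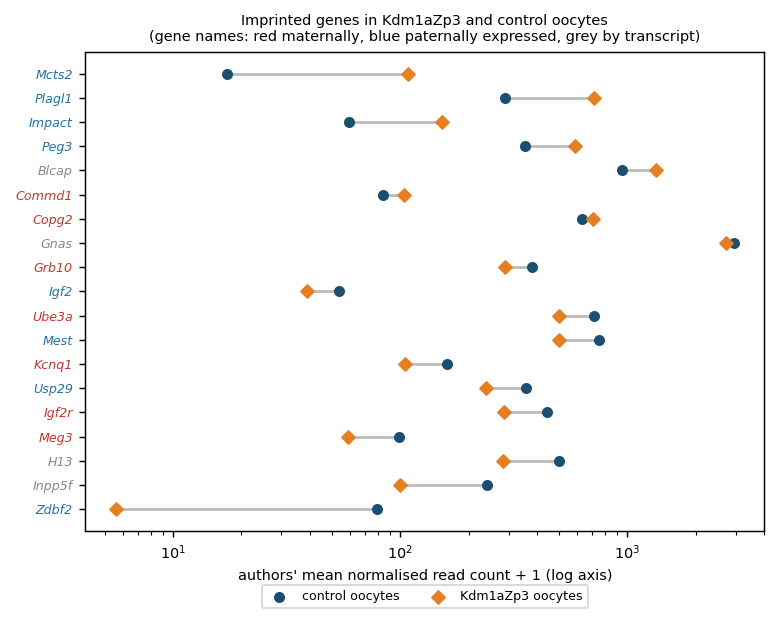
Authors' mean normalised read counts of the 19 measured imprinted genes in Kdm1aZp3 oocytes (diamonds) and control oocytes (circles), plotted as the mean plus 1 on a log axis and ordered by their difference. A line joins the 2 means of a gene. No error can be drawn, since values per library are not given here. Mcts2 at the top (107 against 16.2) and Zdbf2 at the bottom (4.63 against 78.2) stand apart from the other members.

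The other 17 measured members lay closer together. Plagl1, a zinc finger transcription factor also called Zac1, was at 715 in Kdm1aZp3 and 288 in control oocytes in the authors' means (log2 difference 1.28). Impact, a regulator of the translational response to amino acid shortage, was at 151 and 58.6 (log2 difference 1.23). Peg3, a paternally expressed zinc finger gene, was at 586 and 352 (log2 difference 0.72). These were, with Mcts2, the 4 paternally expressed genes that were higher in the mutant, out of 8 measured. Of all 9094 measured gene rows, 4501 were higher in the mutant.

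Of 7 measured maternally expressed genes, 5 had a lower mean in the mutant, beside 4593 of all 9094 measured gene rows. Igf2r, the receptor that takes up IGF2 for lysosomal degradation, was at 284 in Kdm1aZp3 and 442 in control oocytes (log2 difference -0.62). For Mest, a paternally expressed gene of the hydrolase fold family, the authors' means were 499.9 and 746 (log2 difference -0.57). Snrpn, which encodes a splicing protein, stayed under the minimum, with 30.8 in mutant and 14.7 in control oocytes. So did H19, listed at 0 in the mutant and at 5.03 in the control. The median log2 difference was -0.50 over 7 maternally expressed genes, 0.16 over 8 paternally expressed genes and -0.40 over all 19 members, beside -0.01 over all measured gene rows and an interquartile range of -0.53 to 0.58. The difference between the medians of the maternal and paternal classes was -0.66, and it rests on 15 genes that are not replicates. With no minimum mean it was -0.19, and the median over all members was 0.

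The 2C embryo inherits maternal RNA and degrades most of it while its own genome is switched on, so the step from control oocytes to control 2C embryos was compared next. Here 29 imprinted genes were measured, of which 5 (17.2%) were at least 4-fold higher and 10 (34.5%) at least 4-fold lower in control 2C embryos, against 26.8% higher and 20.9% lower of all 12704 measured gene rows. The highest was Kcnq1ot1, the paternally expressed RNA that runs antisense through Kcnq1 and silences its neighbours in cis, at 2055 in control 2C embryos and 87.6 in control oocytes in the authors' means (log2 difference 4.40). Mcts2 was at 453 and 39.5 (3.23), and Usp29, which encodes a ubiquitin-specific protease, at 4145 and 809 (2.34). Phlda2, a maternally expressed regulator of placental growth, was at 141 and 19.9 (2.34). Igf2r, at 4219 and 1024, had a log2 difference of 2.03, close to the limit of 4-fold, and it was under that limit when all differences were centred on the median of all genes (1.94). With 50 added to the means, 3 members were at least 4-fold higher and 5 lower. The matching counts over all gene rows were not taken, so this fall is not read as particular to imprinted genes.

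The 10 lower members included all 4 whose parent depends on the transcript. Blcap, which carries the imprinted gene Nnat in an intron, had the largest difference, with an authors' mean of 71.9 in control 2C embryos and 2164 in control oocytes (log2 difference -4.73). Gnas, which encodes the stimulatory G protein alpha subunit, was at 1332 and 6788 (-2.34), and H13, a signal peptide peptidase, at 205 and 1171 (-2.46). The phosphatidylinositol phosphatase gene Inpp5f was at 119 and 542 (-2.10).

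Maternally expressed genes made up 5 of the other lower members, out of 13 measured (38.5%), beside 20.9% of all measured gene rows. Kcnq1, a potassium channel subunit, was at 8.43 in control 2C embryos and 377 in control oocytes in the authors' means (log2 difference -4.39), and Commd1, a copper homeostasis gene, at 4.29 and 195 (-3.84). The noncoding RNA Meg3 was at 26.4 and 217 (-2.64), the tetraspanin gene Cd81 at 8.70 and 102 (-2.58) and the zinc finger gene Zim1 at 3.85 and 72.9 (-2.58). Mest, at 417 and 1718 (-2.02), was the only paternally expressed gene of the 10, out of 12 measured in its class (8.33%). Among the further genes the study assayed in offspring, Impact was at 400.0 and 131 (1.54), Plagl1 at 339.5 and 652 (-0.92) and Snrpn at 99.3 and 34.7 (1.29). H19 stayed under the minimum at 46.0 and 11.3.

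In this step 9 of 12 measured paternally expressed genes had the higher mean in 2C embryos, and 8 of 13 maternally expressed genes had the higher mean in oocytes. Of all 12704 measured gene rows, 6528 had the higher mean in 2C embryos and 6176 in oocytes. The class medians were -0.88 for maternally and 0.82 for paternally expressed genes, a difference of -1.70, while the median over all gene rows was 0.09. The sign of this class difference depended on which genes were counted. Without the members that are imprinted only or mostly in placenta or brain, or whose parent switches between tissues (Cd81, Tssc4, Ascl2, Dcn, Ube3a, Copg2, Commd1 and Grb10), it was 0.75.

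**Figure D2:**
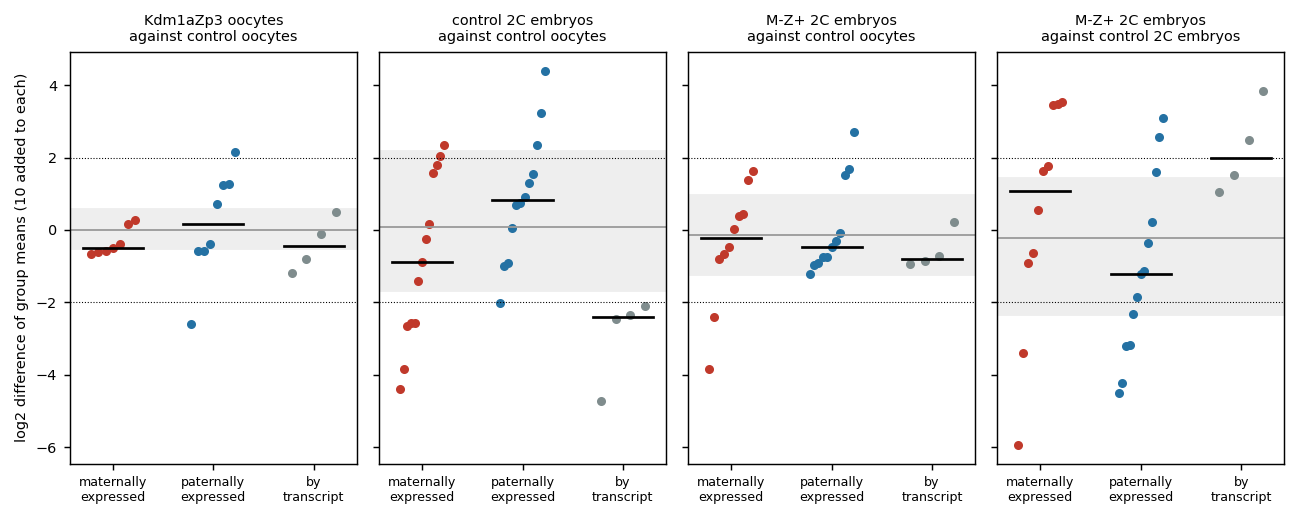
Log2 differences of the authors' group means (10 added to each) for every measured imprinted gene, by comparison and parent class. A point is a gene, a black bar is the median of its class, the grey band and line are the interquartile range and median of all measured gene rows, and dotted lines mark 4-fold. The maternal and paternal medians lie at -0.88 and 0.82 in the second panel and at 1.09 and -1.21 in the fourth.

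The comparison of M-Z+ with control 2C embryos asks how the loss of maternal KDM1A bears on this stage. Of 27 measured imprinted genes, 7 (25.9%) were at least 4-fold higher and 7 (25.9%) at least 4-fold lower in M-Z+ 2C embryos, against 18.1% higher and 28.1% lower of all 11777 measured gene rows. Neither share is read as particular to imprinted genes, and the values of the single genes follow. The median of all gene rows was -0.22, and 7 members were higher and 7 lower also when differences were taken relative to it.

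Igf2r was the most divergent member. Its authors' mean was 37.3 in M-Z+ and 2897 in control 2C embryos, a log2 difference of -5.94. Kcnq1ot1 was at 52.7 and 1414 (log2 difference -4.51) and Mcts2 at 7.28 and 314 (-4.23). Cdkn1c, a maternally expressed inhibitor of cyclin-dependent kinases, was at 2.78 and 125 (-3.40). The retrogene Zrsr1, related to the splicing factor U2AF1, was at 0.78 and 89.9 (-3.21), Usp29 at 306 and 2859.7 (-3.18) and Impact at 46.5 and 275 (-2.34). Impact was short of 4-fold when the means were scaled to equal sums (-1.96). So 5 of the 7 lower members are paternally expressed genes, out of 13 measured in that class (38.5%). The other 2, Igf2r and Cdkn1c, are maternally expressed, out of 10 measured (20%), beside 28.1% of all measured gene rows. With so few genes in a class, these shares are not read as a pattern of the parent classes.

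Of the 7 higher members, 3 are maternally expressed (30% of 10 measured), 2 paternally expressed (15.4% of 13) and 2 depend on the transcript (50% of 4). Over all measured gene rows the share was 18.1%. Blcap was at 845 in M-Z+ and 49.2 in control 2C embryos in the authors' means, a log2 difference of 3.85. Kcnq1 was at 176 and 6.03 (3.54), Zim1 at 134 and 2.83 (3.49) and Commd1 at 131 and 3.01 (3.44). Gnas was at 5138 and 917 (2.47). Rasgrf1, a guanine nucleotide exchange factor for Ras that is paternally expressed, was at 179 and 11.9 (3.10), and Peg3 at 1679.8 and 273 (2.58). With 50 added to the means, 4 members were at least 4-fold higher and 4 lower. All gene rows were not counted at that setting, so the smaller counts are not read as particular to imprinted genes.

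**Figure D3:**
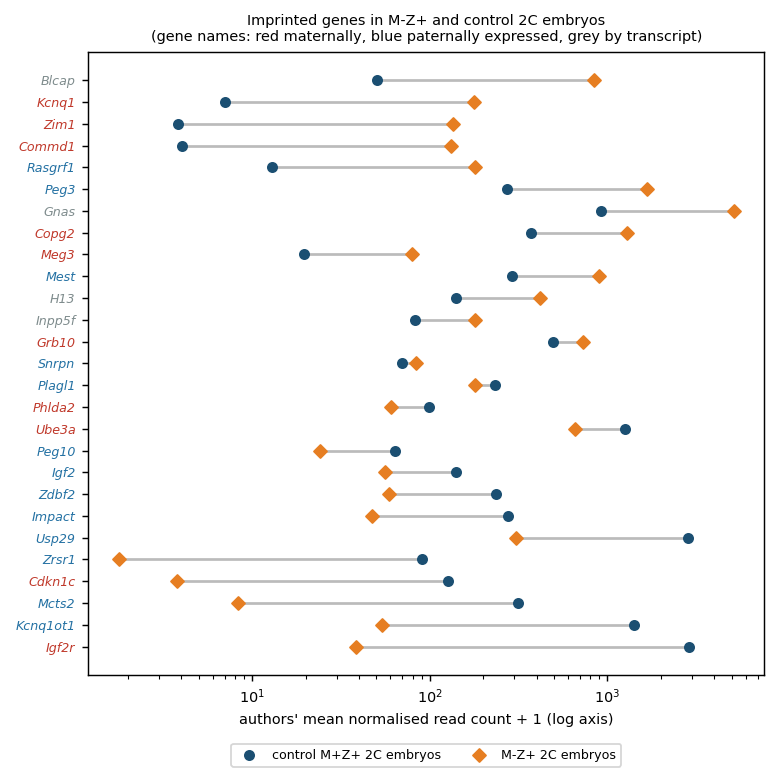
Authors' mean normalised read counts of the 27 measured imprinted genes in M-Z+ 2C embryos (diamonds) and control M+Z+ 2C embryos (circles), plotted as the mean plus 1 on a log axis and ordered by their difference. A line joins the 2 means of a gene, and no error can be drawn. Igf2r at the bottom (37.3 against 2897) and Blcap at the top (845 against 49.2) mark the ends of the range.

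The other 13 members in this comparison ranged from a log2 difference of -1.86 for Zdbf2 to 1.76 for Copg2, a coatomer subunit. Mest was at 899 in M-Z+ and 289 in control 2C embryos (1.61), Plagl1 at 179 and 233 (-0.36, and 0.07 when scaled to equal sums) and Snrpn at 82.4 and 69.0 (0.23) in the authors' means. H19 stayed under the minimum at 14.9 and 31.4. Igf2, the fetal growth factor, was at 55.0 and 139.9 (-1.21). In the paternal class 9 of 13 measured genes had the lower mean in M-Z+ embryos, and in the maternal class 4 of 10. Over all gene rows, 6286 of 11777 measured ones had the lower mean in M-Z+ embryos. The class medians were 1.09 for maternally and -1.21 for paternally expressed genes, a difference of 2.29. Without the tissue-restricted members the difference was 1.70, and with no minimum mean, where members of low level enter as well, it was 0.29.

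The stage markers of the same table differed as well. Of the 10 oocyte markers, 7 (70%) were at least 4-fold higher in M-Z+ embryos, beside 18.1% of all measured gene rows. Their median log2 difference was 3.26, and the 10 means summed to 124192 against 10840. Of 11 rows of 2C embryo markers, 7 were measured, of which 1 (14.3%) was at least 4-fold higher and 3 (42.9%) at least 4-fold lower. The shares over all measured gene rows were 18.1% and 28.1%, and with 7 rows neither share is read as particular to the 2C markers. Their median log2 difference was -1.43, beside -0.22 over all measured gene rows. The lower mean was in M-Z+ embryos for 5 of the 7 and in control embryos for 2. The 11 rows summed to 1905 against 3926. The part of this stage difference in the values of the imprinted genes was not tested.

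At 4 loci, picked after the values were seen, members that share a locus stood on opposite sides. Mest and Copg2, which also overlap, stood on the same side. Kcnq1 (GRCm38 chr7:143106362-143427042, plus strand) contains Kcnq1ot1 (chr7:143203458-143296549) on the minus strand, and relative to control 2C embryos the M-Z+ embryos had the higher mean of Kcnq1 and the lower mean of Kcnq1ot1. Commd1 (chr11:22896136-22982382, minus strand) contains Zrsr1 (chr11:22972005-22976496) on the plus strand, and here too the host gene was higher (131 against 3.01) and the inner gene lower (0.78 against 89.9). H13 (chr2:152669461-152708670, plus strand) contains Mcts2 (chr2:152687035-152687946) on the same strand. H13 was at 418 in M-Z+ and 140.4 in control 2C embryos, a log2 difference of 1.51 that stayed short of 4-fold, while Mcts2 was at 7.28 and 314. At the divergent start sites shown above, Peg3 (chr7:6703892-6730431) was higher and Usp29 (chr7:6730578-6967219) lower, and Zim1, further along on the Peg3 side (chr7:6671269-6696450), was higher.

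**Figure D4:**
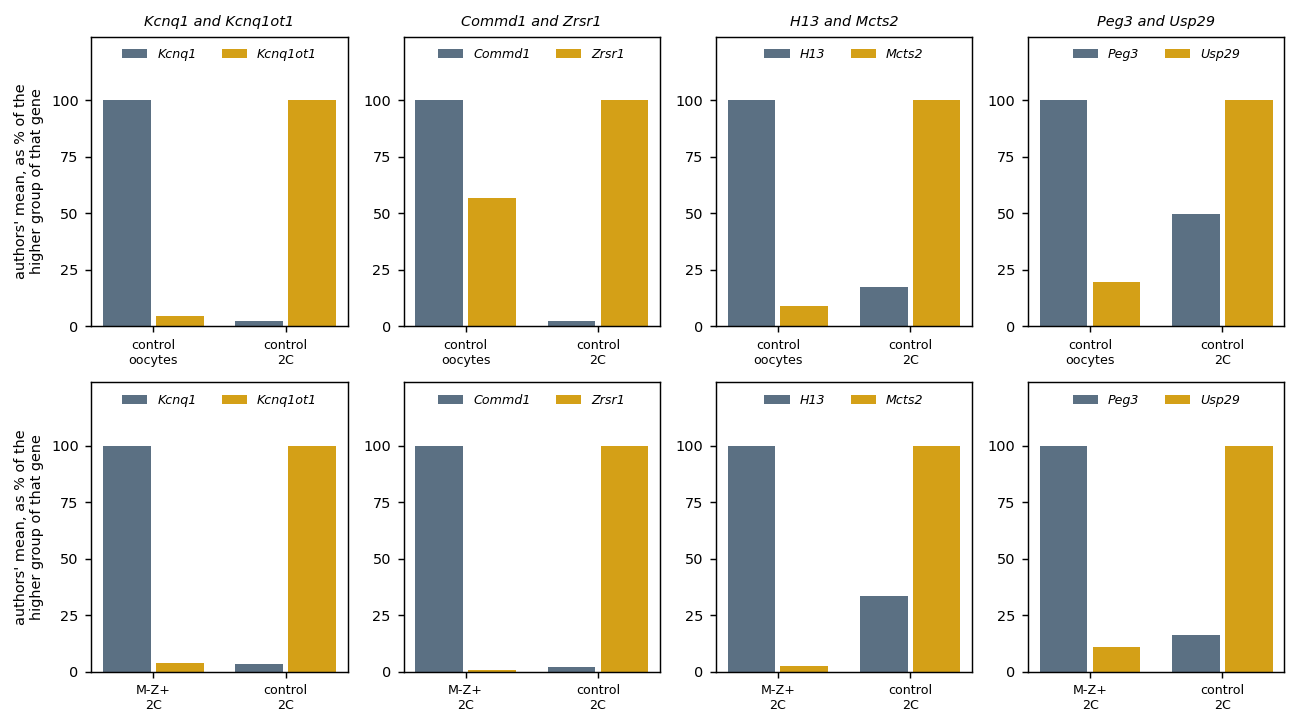
Authors' means of 4 pairs of imprinted genes that share a locus, each gene as a percent of its own higher group, in control oocytes and control 2C embryos (upper row) and in M-Z+ and control 2C embryos (lower row), which come from separately scaled tables. In every panel the host gene, or Peg3, is lower in control 2C embryos than in the other group, and its partner is higher there. The 2 rows share the control 2C libraries, and heights are read within a gene.

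Because the tables do not state that reads were counted by strand, reads from overlapping exons on opposite strands cannot be told apart. By the GENCODE M21 annotation, Kcnq1 shared 121 exonic bases with Kcnq1ot1 (2.96% of its exonic length) and Commd1 shared 412 with Zrsr1 (6.94%). Opposite-strand genes that are no members overlapped members too. Cdkn1c shared 625 bases with Gm44732 (30.7%), and Usp29 shared 2582 with Zim3 (14.3%). Mest and Copg2 overlapped by 912 bases at their ends (23.1% of Mest and 17.8% of Copg2), and their means were higher together in M-Z+ embryos. Such values are uncertain to the extent that reads fell into the shared exons. No exon of H13 was shared with Mcts2, nor of Peg3 with Usp29.

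In the remaining table M-Z+ 2C embryos were compared with control oocytes, which separates members near the oocyte level from those away from it. Of 25 measured members, 1 (4%) was at least 4-fold higher and 2 (8%) were at least 4-fold lower, against 10.8% and 13.9% of all 10313 measured gene rows. Rasgrf1 was at 183 in M-Z+ 2C embryos and 19.4 in control oocytes in the authors' means (log2 difference 2.72). Igf2r was at 38.4 and 680.3 (-3.83), and Cd81 at 4.61 and 67.5 (-2.41). Thus Igf2r was the only measured member at least 4-fold lower in M-Z+ 2C embryos than in both control groups, and Rasgrf1 the only one at least 4-fold higher. Other members also lay outside both control means without reaching 4-fold against control oocytes. Among them, Usp29, Impact and Zdbf2 were lower, and Peg3 and Zim1 higher.

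Of the genes high in M-Z+ over control 2C embryos, several differed little from control oocytes. The log2 differences of M-Z+ 2C embryos against control oocytes were -0.73 for Blcap, -0.48 for Kcnq1, 0.04 for Commd1 and 0.21 for Gnas. Peg3, at 1705 in M-Z+ 2C embryos and 527 in control oocytes, had a log2 difference of 1.67, and Zim1, at 139 and 47.7, of 1.37. Among the genes low in M-Z+ against control 2C embryos, Kcnq1ot1 was at 53.3 and 57.6 (-0.10), Usp29 at 312 and 533 (-0.75) and Impact at 47.6 and 87.0 (-0.75). Mcts2, at 7.20 and 26.3, Zrsr1, at 0.79 and 49.5, and Cdkn1c, at 2.72 and 30.3, stayed under the minimum in this table, each with the lower mean in M-Z+ 2C embryos. Plagl1 was at 180.5 and 433 (-1.22), Mest at 917 and 1136 (-0.31), Snrpn at 83.2 and 22.6 (1.52) and H19, under the minimum, at 15.5 and 7.67. The tables share their control libraries, so their differences are not independent of one another.

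Several members, among them Impact and Mcts2, had opposite signs in the mutant oocytes and the M-Z+ 2C embryos, each set against its own control. Others were Kcnq1 (-0.57 and 3.54), Meg3 (-0.67 and 1.62), Mest (-0.57 and 1.61) and Plagl1 (1.28 and -0.36). The share of all gene rows with opposite signs was not counted, so none of this is read as particular to these genes. For Impact the log2 differences were 1.23 and -2.34, and for Mcts2 they were 2.16 and -4.23. Peg3 was on the higher side in both (0.72 and 2.58) and Zdbf2 on the lower side in both (-2.59 and -1.86). Oocyte and embryo groups come from separate collections, and mutant oocytes were not set beside M-Z+ 2C embryos in a table of their own.

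The proteins that set and keep imprints were described from a separate list of 16 genes, Kdm1a among them, all measured in every table. In oocytes, 1 (6.25%) was at least 4-fold higher and 1 (6.25%), Kdm1a, at least 4-fold lower, beside 4.24% and 2.57% of all measured gene rows. Kdm1a is the deleted gene, so its place among the lower ones, here and in M-Z+ 2C embryos, is no result about this list. The higher one was Tet1, an enzyme that oxidises 5-methylcytosine, at 388 in Kdm1aZp3 and 82.8 in control oocytes in the authors' means (log2 difference 2.10). In M-Z+ against control 2C embryos, 5 (31.2%) were at least 4-fold higher and 3 (18.8%) lower, beside 18.1% and 28.1% of all measured gene rows. The higher ones were Uhrf1 (3951 against 253) and Dnmt1 (10279 against 2329.6), which maintain DNA methylation, Zfp57 (51667 against 5613), the histone methyltransferase gene Setdb1 (4193 against 1023) and Tet3 (16362 against 3529). Besides Kdm1a, the lower ones were Tet1 (641 against 9131) and Trim28, the partner of ZFP57 (966 against 9446).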

How the data were processed

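RNA from 3 libraries each of Kdm1aZp3 oocytes and M-Z+ 2C embryos was amplified and sequenced, and control libraries came from an earlier study. With BBMap the authors mapped the first read of each pair to genes and repeats of mm10, weighted reads with several gene loci by the inverse square of their number, median normalised each comparison in R and averaged each group. The deposited value of a gene is thus a score, a mean of weighted counts of a group, and 0 columns of per-library values were left unused. Cufflinks and DESeq are listed in the submitters' processing notes too, without versions. The tables further hold the authors' own fold changes, p-values, q-values and significance calls, which were not used. The repeat table was not used.

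In the 3 tables with 2C embryos the mean columns carry no group names and were read as b for the group named first and a for the second, the reverse of the legends of the study's source data. The columns so read as control oocytes had Spearman correlations of 0.9999 across 8151 genes with the named control oocyte column of the oocyte table, against 0.5321 and 0.7355 for the other columns, and Kdm1a was low in the mutant groups only. Genes are not independent replicates.

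From the means, log2 differences with a pseudocount of 10 were computed over all gene rows, and members whose higher mean reached 50 were described. No test was possible on group means, and depth is unknown. The code of the 4-fold rule was run on means with larger differences planted and no noise added. Such a run checks the code only, and says nothing on low means or on the spread between libraries. Genes named with full values are the 6 the study assayed in offspring (Plagl1, Impact, H19, Igf2r, Mest, Snrpn) and every member at least 4-fold apart in that comparison. Each member stood on 1 row. Marker lists keep all rows of a symbol (Zscan4f and Prm1). Members, classes and lists were chosen with earlier results of these data known. Alternatives were pseudocounts of 1 and 50, minimum means of 20, 200 and none, a 2-fold limit, centring, scaling to equal sums, summed rows, tissue-restricted genes left out, and the difference between the 2C groups taken through control oocytes. Positions are from GENCODE M21 and promoters from RefSeq, both GRCm38. Python 3.11.15, numpy 2.4.6, pandas 2.3.3, scipy 1.17.1 and matplotlib 3.10.9 were used.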

Additional observations from a re-analysis of the deposited data

How the results depend on the processing

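No paired analysis was possible because the tables hold only group means, and for the same reason no library could be left out in turn. Among 48 values of named genes, Plagl1 in M-Z+ against control 2C embryos, which was not 4-fold apart, changed sign (0.07 when scaled to equal sums), and of the 401 values recomputed 366 kept their side of 4-fold, 34 no longer reached 4-fold or the minimum and 1 newly did (Mest in M-Z+ against control 2C embryos, 2.05 when scaled to equal sums). In oocytes, 0 members were at least 4-fold higher and 0 lower with a pseudocount of 50 or a minimum of 200, 2 were higher with a minimum of 20 or none, and 3 were higher and 2 lower at 2-fold. In control 2C embryos against control oocytes, 3 were higher and 5 lower with a pseudocount of 50, 9 were higher at 2-fold, and the median of the members was -0.92 with a minimum of 200. The maternal minus paternal difference there was -1.18 with a pseudocount of 50, -1.08 with a minimum of 20, -0.77 with none and 0.75 without tissue-restricted genes. In M-Z+ 2C embryos against control oocytes, the higher members numbered 2 with a pseudocount of 1, 0 with a pseudocount of 50 or a minimum of 200, 3 with a minimum of 20 or none and 5 at 2-fold, and the lower ones 1 with a pseudocount of 50 or a minimum of 200 and 4 with a minimum of 20 or none. In M-Z+ against control 2C embryos, 4 were higher and 4 lower with a pseudocount of 50, 3 were higher with a minimum of 200, 12 were higher at 2-fold, and the median of the members was -0.36 with a minimum of 200. The class difference there was 1.57 with a pseudocount of 50, 1.73 with a minimum of 20, 0.29 with none, 1.70 without tissue-restricted genes and 1.79 through control oocytes. A larger pseudocount shrinks differences of low genes by construction, and a minimum changes which genes are counted. Shares over all gene rows were not taken at these settings. The counts therefore show only how the calls move with the setting, and are not read as results about imprinted genes. Values are called close when a median moved by less than 0.5 or a count by no more than 1.5 times, limits chosen here.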

Other observations

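Other imprinted genes, from a list of 40 symbols that are no members, of which 37 rows were found, were described in the same way. In M-Z+ against control 2C embryos 13 were measured, of which 1 (7.69%) was at least 4-fold higher and 5 (38.5%) were at least 4-fold lower, beside 18.1% and 28.1% of all measured gene rows. Xist, the noncoding RNA that silences the paternal X chromosome in early mouse embryos, had an authors' mean of 3.97 in M-Z+ and 869 in control 2C embryos, and it was listed at 0 in Kdm1aZp3 and at 0.319 in control oocytes. Phf17 (also called Jade1), a chromatin reader, was at 9.72 and 1231 in the same 2C comparison, and Chrac1, a histone fold subunit of a chromatin remodelling complex, at 3.78 and 148. Zim3 was at 63.7 and 335, and the Argonaute gene Ago2 at 265 and 1360.4. Zim3 shares 2582 exonic bases with Usp29 on the opposite strand, 14.3% of the exonic length of Usp29. The higher gene was Slc22a3, an organic cation transporter that lies near Igf2r on chromosome 17, at 299 in M-Z+ and 5.93 in control 2C embryos, whereas Igf2r was at 37.3 and 2897.

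In oocytes 1 of 8 measured genes of this list (12.5%) was at least 4-fold higher in the mutant, beside 4.24% of all measured gene rows. Gab1, an adaptor of receptor tyrosine kinases, was at 1074 in Kdm1aZp3 and 31.3 in control oocytes, and at 1256 in M-Z+ and 603 in control 2C embryos.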
